A study of Bos taurus with 9 samples.

Results

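Interferon tau (IFNT) was added to bovine endometrial cells that had already received estradiol (E2) and progesterone (P4), and its effect on that hormone background was read from the 3 libraries of group GB against the 3 libraries of group GA. The comparison covered the 12592 of 17162 genes whose mean level over these 6 libraries reached 0.5 FPKM (sequenced fragments of a gene scaled for its exon length and for the mapped reads of the library). Both groups were wild-type primary cells from bovine endometrium, termed BEND, and both received 1 nM E2 and 100 nM P4. The GA libraries came from cells given the hormones alone, and the GB libraries from cells that had the hormones for 12 h before 100 ng/mL IFNT was added for 12 h more. The 3 remaining libraries, CON, came from cells that received neither hormone nor IFNT and entered the statistical model but not this contrast. The time of harvest of GA was not stated separately, so the effect of IFNT and a difference in the length of culture or of hormone exposure cannot be told apart. The study's methods describe cells grown in dishes and call the replicates biological, and the sources used here do not say whether replicates came from different animals, so the p-values measure the spread between these libraries.

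IFNT is a type I interferon secreted by the trophectoderm of the ruminant conceptus as the signal for maternal recognition of pregnancy. Like other type I interferons it binds the IFNAR1 and IFNAR2 receptor chains, and the kinases JAK1 and TYK2 then activate STAT proteins such as STAT2, which acts with IRF9 in the transcription factor complex ISGF3. Genes switched on by this complex include antiviral effectors, antigen presentation genes and the inhibitors that later dampen the signal, and in the uterus the response is studied for its bearing on luteal maintenance and receptivity.

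The cells are labelled as epithelial, and the RNA of the marker genes went against that label. The study's methods include an immunofluorescence check of the cultures for cytokeratin, a protein measurement not analysed here. All 12 epithelial markers in the table had a mean under 1 FPKM over the 6 libraries, among them the keratins KRT18 and KRT8 and the cadherin CDH1, and their summed level was 1.61 to 2.19 FPKM in GA and 1.8 to 2.58 FPKM in GB. The 12 stromal fibroblast markers all exceeded 1 FPKM and summed to 17503 to 17920.3 FPKM in GA and 15712 to 15838 FPKM in GB, with vimentin (VIM) and the collagen chain COL1A2 as the most abundant. The 5 smooth muscle markers summed to 8413 to 8602 FPKM in GA and 7592 to 7889 FPKM in GB. Most of this was TAGLN and ACTA2, with DES and CNN1 lower. MYH11 was only at 2.66, 2.49 and 2.97 FPKM in GA and 2.13, 2.02 and 2.32 FPKM in GB, so the markers of this type did not stand together. Endothelial markers reached at most 3.44 FPKM in sum, and immune markers 21.8 to 27.7 FPKM, most of it CD14. The cells are therefore called endometrial cells here. In bulk RNA, fewer cells of a type and less RNA per cell cannot be told apart.

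Libraries of the same group were more alike than libraries of different groups. Across genes, Pearson's r of the log2 values was 0.990 to 0.991 within GA, 0.989 to 0.990 within GB and 0.957 to 0.959 between GA and GB. The table holds no read counts per gene, so the number of reads behind a single value is unknown. FPKM values are shares of a library, and the share taken by the genes that moved differed between the groups: genes called higher took 0.808% to 0.860% of the summed FPKM in the GA libraries and 5.39% to 5.45% in the GB libraries. The 13 genes of mitochondrial DNA took 1.96% to 2.02% in GA and 0.399% to 0.430% in GB. The median log2 fold change of all tested genes was -0.07 with the deposited values and -0.003 when libraries were rescaled by median-of-ratios factors, and small changes are read below against this shift.

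Between GA and GB many genes differed by a little and fewer genes by a lot. A gene was called when its Benjamini-Hochberg adjusted p in limma was under 0.05 and its change exceeded 2-fold. This held for 463 genes (3.68% of those tested), of which 340 were higher (2.7%) and 123 lower (0.977%) in GB. The 3 libraries of GB lay wholly outside the range of the 3 of GA for 460 of the called genes, and did so for 15.8% of all genes in the upward and 31% in the downward direction. Another 3194 genes passed the same adjusted p with a change of up to 2-fold, and these are termed modest: 908 rises and 2286 falls. In all, 29% of the tested genes passed, 9.91% as rises and 19.1% as falls. The shares given below for gene lists are percents of the tested genes of a list and stand beside these 2 values.

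The balance of modest rises and falls depended on how the libraries were scaled. Of the modest changes, 28.4% were rises with the deposited values, 31.2% after quantile normalization and 49% with median-of-ratios factors, under which 1439 rises and 1497 falls were found. Among called genes the share of rises was 73.4%, 76.3% and 78.9% under the same 3 scalings. A change is therefore said to hold where the gene passed in the same direction under all 3. This was the case for 1227 rises (9.74% of the tested genes), 887 of them modest, and for 1590 falls (12.6%), 1471 of them modest. Of 630 falls of at most 1.2-fold, 121 held, against 990 of 1273 between 1.2-fold and 1.5-fold and 360 of 383 between 1.5-fold and 2-fold. Rises lost few members, with 214 of 233, 478 of 480 and 195 of 195 held in the same bands. The other scalings moved the median change upward, from -0.0746 as deposited to -0.0596 with quantile normalization and -0.00325 with median-of-ratios factors. That shift favours rises in this check, so the difference in the shares that held does not show rises to be firmer than falls.

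**Figure D1:**
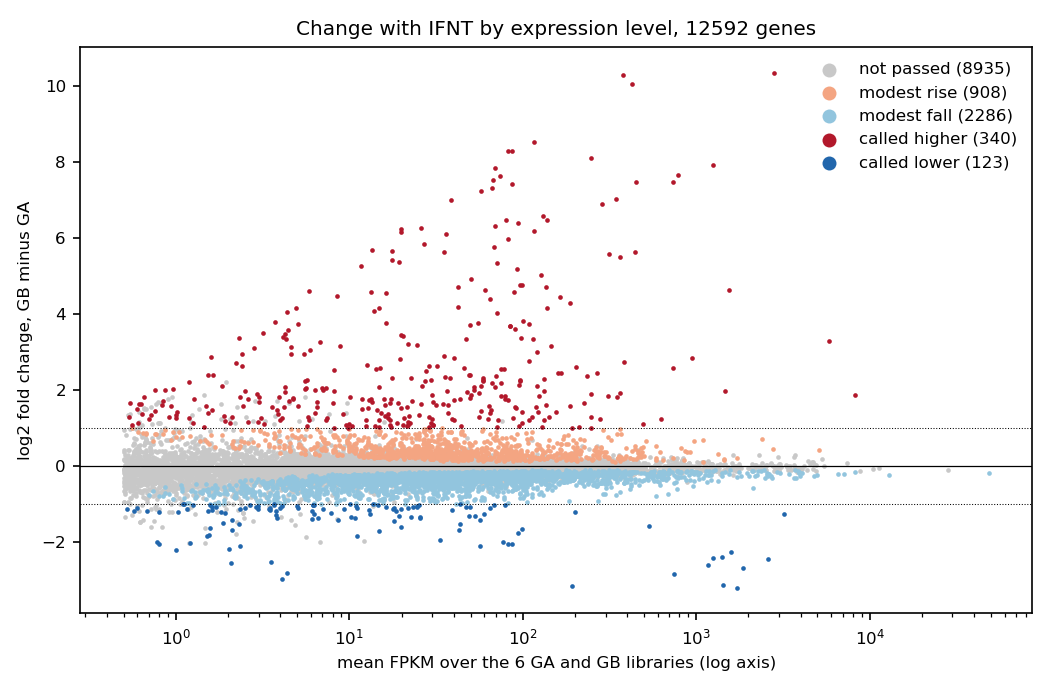
Log2 fold change (GB minus GA) of each of the 12592 tested genes against its mean FPKM over the 6 libraries on a log axis, 1 point per gene. Colours mark the class of the gene and dotted lines a 2-fold change. The 340 genes called higher reach a log2 fold change of 10.34, while the 123 called lower reach -3.20.

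Large changes were mostly rises. On the log2 scale used here, a change of more than 8-fold was seen for 98 rises and 3 falls, one of 4-fold to 8-fold for 66 rises and 19 falls, and one of 2-fold to 4-fold for 176 rises and 101 falls. Between 1.5-fold and 2-fold the order turned, with 195 rises and 383 falls. Precision limited what could be seen in genes of low level: the median SE of the log2 fold change was 0.202 in the lowest quartile of genes by level and 0.060 in the highest. Of the lowest quartile, 177 genes rose and 350 fell, against 407 and 801 of the highest.

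The chain of receptor, kinases and transcription factors did not move as a whole. Below, a value without a unit beside a gene is its log2 fold change (GB minus GA) on the log2(FPKM + 0.5) scale, and percent falls and folds are ratios of mean FPKM. IFNAR1, the receptor chain that pairs with TYK2, was at 35.7, 36 and 38.1 FPKM in GA and 12.4, 15.1 and 15.2 FPKM in GB. No GB library reached the lowest GA library, and the gene fell by 61.1% (log2 fold change -1.34, SE 0.088, adjusted p = 4.15e-06). Its partner IFNAR2 was at 14, 11.4 and 14.5 FPKM in GA and 14.2, 14.5 and 14.1 FPKM in GB, with overlapping libraries and a log2 fold change of 0.10 (SE 0.089) that did not pass. The kinases JAK1 and TYK2 also did not pass, at log2 fold changes of -0.0046 (SE 0.042) and -0.07 (SE 0.085). Within ISGF3, STAT2 rose from 12.7 ± 0.679 to 47.6 ± 1.72 FPKM (mean ± SD, n = 3, as in all such pairs below) and IRF9 from 23.6 ± 1.1 to 109 ± 3.55 FPKM, with log2 fold changes of 1.87 and 2.19. STAT5A was a modest rise at 0.24, while STAT3, STAT5B and STAT6 did not pass. The 15 genes of this list held 3 called higher, 1 modest rise and 1 called lower, with a median of -0.005 beside -0.07 for all genes.

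The inhibitors of the pathway moved in both directions. USP18, a protease that removes ISG15 from proteins and blocks IFNAR2, was at 4.07, 4.33 and 4.53 FPKM in GA and 547, 569 and 584 FPKM in GB. SOCS1, which inhibits JAK kinases, was at 3.98, 5.53 and 2.81 FPKM in GA and 27.6, 24.7 and 25.6 FPKM in GB. Both groups of libraries were apart for each gene, and the log2 fold changes were 6.88 (SE 0.11) and 2.56 (SE 0.19). The ubiquitin ligase TRIM21 rose as well (4.70), and the modest rises were PIAS1 (0.53), SOCS3 (0.24) and PTPN1 (0.21). CISH, a STAT5 inhibitor of the same family as SOCS1, fell by 39.4%, and the phosphatase PTPN11 and the SUMO ligase PIAS4 fell by 16.4% and 17.2%. All of these changes held under the 3 scalings. A further SUMO ligase that no list held, PIAS2, was called lower (from 36.9 ± 1.01 to 13.9 ± 0.938 FPKM, log2 fold change -1.38, SE 0.060, adjusted p = 1.62e-07), and it is named here because its family was on the list, after its values were seen.

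Of 6 interferon regulatory factors tested, 5 were called higher. IRF1 rose from 15.4 ± 2.19 to 83 ± 5.9 FPKM, IRF7 from 57.8 ± 4.02 to 350.0 ± 7.76 FPKM, IRF3 from 65.7 ± 4.09 to 159 ± 2.25 FPKM and IRF2, which can repress the sites that IRF1 activates, from 7.31 ± 0.542 to 17.7 ± 2.24 FPKM. IRF8 met a rule termed few reads. This means a 0 in at least 1 of the 6 libraries and a largest value less than 10 times the smallest one that was not 0. The rule uses FPKM and not read counts, so it also marks genes at 0 in GA with clear levels in GB. IRF5 did not pass (0.10, SE 0.13). Among 18 sensors of viral RNA and DNA and their adaptors, 11 were called higher and none lower, with a median of 1.40. The receptors themselves carried the rises: IFIH1 (MDA5) was at 0.48, 0.48 and 0.58 FPKM in GA and 164, 179 and 173 FPKM in GB, and DDX58 (RIG-I) was at 4.1, 4.24 and 5.1 FPKM in GA and 173, 181 and 186 FPKM in GB. The DNA sensors ZBP1 (7.24), IFI16 (4.15) and CGAS (2.89) rose too. The adaptors that pass their signals on did not pass the test, namely MAVS at 0.05 (SE 0.079), MYD88 at 0.13 (SE 0.071), TICAM1 at -0.03 (SE 0.089) and TMEM173 (STING) at -0.08 (SE 0.21). The kinase TBK1, which acts below them, was a modest rise at 0.31.

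Antiviral effectors made up most of the largest rises. Of 32 tested, 30 were called higher, with a median of 6.21. ISG15, a ubiquitin-like protein that is conjugated to other proteins, was at 1.8, 6.46 and 4.49 FPKM in GA and 5616, 5536 and 5596 FPKM in GB. MX2, a dynamin-like GTPase, was at 0.14, 0.09 and 0.09 FPKM in GA and 757, 762 and 753 FPKM in GB. The log2 fold changes were 10.34 (SE 0.46) and 10.29 (SE 0.079), and since MX2 was near 0 without IFNT its value depends on the 0.5 FPKM added before taking logs. The next largest rises were RSAD2 (10.06), IFIT2 (8.51), IFI44L (8.29), IFI44 (8.28), the 2′-5′ oligoadenylate synthetase OAS1X (8.10), IFI6 (7.92), the death ligand TNFSF10 (7.84) and MX1 (7.64). RSAD2, IFIT2, IFI44L, IFI44 and TNFSF10 were also near 0 without IFNT, so their values and the order of the largest rises depend on the 0.5 FPKM added. Not every effector depended on IFNT for its presence: the membrane protein IFITM1 already stood at 1088 ± 35.5 FPKM in GA and reached 10536 ± 315 FPKM in GB, and IFITM3 rose from 594 ± 21.4 to 2326 ± 44 FPKM. Members of the IFITM and OAS1 families share sequence, so that reads may have been split between them and their single values are uncertain.

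The 2 effectors that were not higher were modest falls. SAMHD1, which depletes nucleotides and so restricts reverse transcription, was at 15.3, 14.1 and 14.5 FPKM in GA and 10.3, 12.2 and 11 FPKM in GB. ZC3HAV1, the zinc finger antiviral protein that binds CpG-rich RNA, was at 43.4, 44.9 and 44.9 FPKM in GA and 34.3, 32.5 and 30.3 FPKM in GB. In both genes every GB library lay below every GA library, the falls were 23.9% and 27% (adjusted p = 0.00584 and 0.00101), and both held under the 3 scalings. The ISG15 conjugation list also holds ISG15 itself and USP18, which removes it, and 7 of its 8 tested genes were called higher. These included the activating enzyme UBA7 (5.34) and the conjugating enzyme UBE2L6 (3.68). The ligases HERC5 (3.59), HERC6 (4.43) and TRIM25 (1.53) also rose, while the ligase ARIH1 did not pass (-0.06, SE 0.056).

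**Figure D2:**
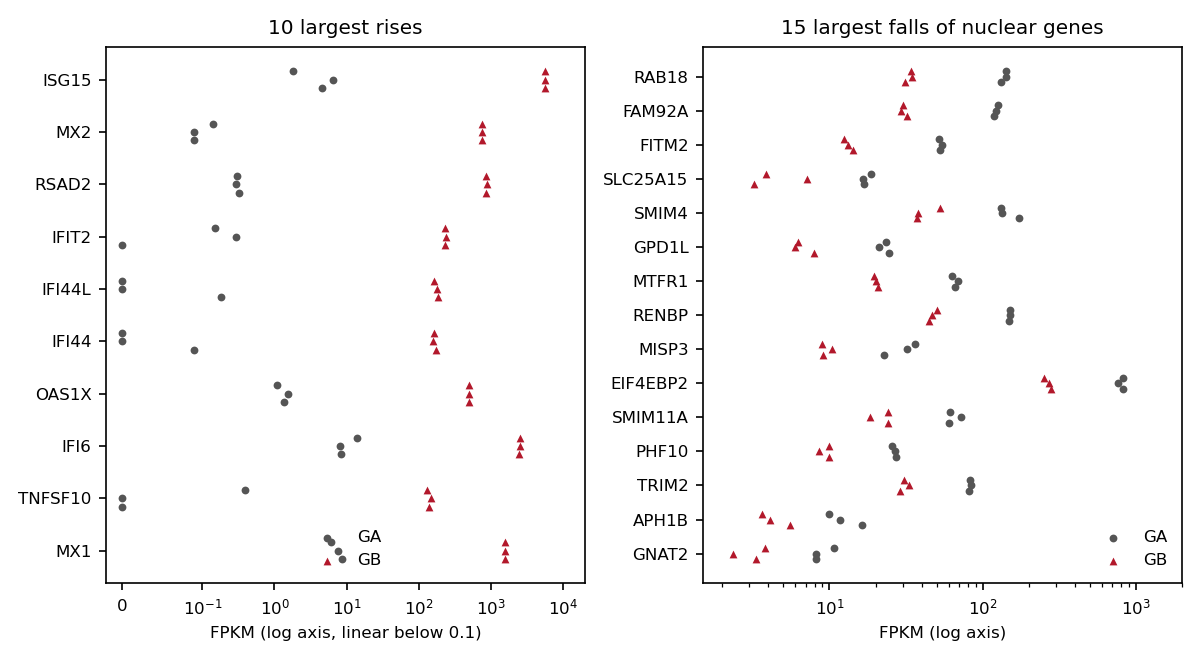
FPKM of each GA library (grey circles) and each GB library (red triangles) on log axes, for the 10 largest rises on the left (linear below 0.1 FPKM) and the 15 largest falls of nuclear genes with a mean of at least 5 FPKM on the right. The rises were chosen among genes whose GA and GB libraries do not overlap. ISG15 went from 1.8, 6.46 and 4.49 to 5616, 5536 and 5596 FPKM. In the falls, chosen by size and level, the 3 GB libraries also lie below the 3 GA libraries. RAB18 went from 142, 143 and 132 to 34, 34.4 and 31.4 FPKM.

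In antigen presentation by MHC class I, 12 of 15 tested genes were called higher and the median was 1.86. The light chain B2M was at 3389, 3471 and 3800.3 FPKM in GA and 12350.0, 13273 and 12931 FPKM in GB, which made it the most abundant gene to rise. The peptide transporter TAP1 rose from 6.6 ± 0.34 to 191 ± 4.26 FPKM and its partner TAP2 from 21.5 ± 0.592 to 79.4 ± 1.82 FPKM. The trimming peptidases ERAP1 and ERAP2, the loading factors TAPBP and TAPBPL and the class I genes BOLA, BoLA and BOLA-NC1 also rose, by log2 fold changes of 1.42 for TAPBP to 3.76 for BOLA-NC1. Class I genes are near copies of each other, so that the reads of single members are uncertain. The 3 that did not pass were the general endoplasmic reticulum chaperones CALR, CANX and PDIA3, at 0.06, 0.10 and 0.05, although CALR and CANX passed as rises with median-of-ratios factors (0.14 and 0.17). Of 6 class II genes tested, the exchange factor BOLA-DMB (3.26) and the protease CTSS (1.73) were called higher, and the invariant chain CD74 was not (from 2.27 ± 0.768 to 2.71 ± 0.685 FPKM).

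Genes of the proteasome moved differently in its constitutive and inducible forms. All 5 genes of the immunoproteasome and its activator were called higher, PSMB9 from 2.03 ± 0.569 to 135 ± 1.71 FPKM, PSMB8 from 18 ± 1.52 to 358 ± 5.62 FPKM and PSMB10 from 20.4 ± 0.997 to 97.7 ± 2.92 FPKM, with a list median of 2.36. The constitutive subunits that these 3 replace, PSMB6, PSMB5 and PSMB7, had log2 fold changes of -0.02, -0.09 and -0.19. Of these PSMB7 passed as deposited but not with median-of-ratios factors, with the replicate block or without the variance trend. It also did not pass without any 1 of the 6 GA and GB libraries (adjusted p up to 0.116). Within the 15 genes of the constitutive core, 5 were modest rises, the largest being PSMA5 at 0.51 and PSMB4 at 0.26, and 1 alpha subunit stood apart. This was PSMA2, at 361, 371 and 385 FPKM in GA and 848, 880.5 and 896 FPKM in GB (log2 fold change 1.23, SE 0.051, adjusted p = 1.11e-07), whose 3 GB libraries all exceeded its GA libraries. The 20 genes of the 19S cap had 2 modest rises and 4 modest falls (10% and 20%, beside 9.91% and 19.1% of all genes), with a median of -0.03.

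Members of several gene families were higher. Of 10 tested genes described as guanylate-binding proteins in the table, 9 were called higher, up to a log2 fold change of 7.30. The same was true of 3 of 3 described as bone marrow stromal antigen 2, a tether of budding virus, and of 4 of 5 described as apolipoprotein L. These descriptions were searched after the values were seen, and genes were admitted on their mean over GA and GB together. Most of the guanylate-binding protein and apolipoprotein L genes were under 0.5 FPKM in GA and were tested only because of their level in GB. Members low in both groups were left out, so the shares for these families were partly set by that rule. Among 14 genes of the PARP family and its partners, 5 were called higher: PARP9 (4.91), its partner DTX3L (4.38), PARP10, PARP12 and PARP14. PARP1, the main DNA damage responder of the family, did not pass (-0.10, SE 0.038), and PARP8 (0.62) was a modest rise. Of 34 TRIM genes, 7 were called higher and 4 were modest rises, 6 were modest falls and 1, TRIM2, was called lower (32.4% rose and 20.6% fell).

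Called rises often lay next to each other in the genome. Gene order was taken from RefSeq (assembly ARS-UCD2.0, used for the order only), in which 12403 of the tested genes were found. Among the 332 nuclear genes called higher that could be placed, 108 (32.5%) had a called-higher gene as the next tested gene on at least 1 side, as did 4.99% of all placed nuclear genes. Among 104 nuclear genes called lower, 8 (7.69%) had a called-lower neighbour, as did 1.67% of all. The longest runs without a gap held 11 genes, the guanylate-binding protein cluster with GBP4 and GBP5, and 7 genes beginning with the exonuclease ISG20. A run of 5 held TAP2, LOC618733, PSMB8, TAP1 and PSMB9 of the MHC region, and a run of 3 held AGRN, ISG15 and HES4. Near copies within a run share reads, which makes their single values uncertain.

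Cell death genes showed both called and modest rises. Of 25 tested, 6 were called higher and 9 were modest rises, all of which held, and 1 was a modest fall. The initiator CASP8 rose from 9.76 ± 0.0929 to 49.1 ± 3.72 FPKM and the inflammatory CASP4 from 49 ± 0.235 to 270.0 ± 15.2 FPKM. GSDMD, whose cleaved form opens membrane pores, rose from 32.4 ± 2.09 to 79.5 ± 1.48 FPKM. The kinase RIPK3 was called (1.51), and its target MLKL at 0.98 and its partner RIPK1 at 0.71 were modest. Genes that oppose death also stood among the modest rises, BIRC3 at 0.88 and MCL1 at 0.38. BAX, which permeabilises the outer mitochondrial membrane, did not pass (-0.16, SE 0.065).

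Among 22 cytokine and chemokine genes and receptors, 7 were called higher and 1 was a modest fall. The B cell factor TNFSF13B rose from 8.56 ± 0.651 to 55.7 ± 6.87 FPKM, the monocyte attractant CCL2 from 13.6 ± 4.27 to 29.7 ± 12.9 FPKM, the receptor CXCR4 from 1.4 ± 0.625 to 7.16 ± 0.628 FPKM and IL15RA from 65.6 ± 4.41 to 151 ± 3.56 FPKM. CXCL10 was at 0, 0 and 4.13 FPKM in GA and 7.04, 5.65 and 10.8 FPKM in GB and met the few-read rule. The call of CCL2 was lost without GA replicate 3, GB replicate 2 or GB replicate 3 (adjusted p up to 0.115), without the filter, without the variance trend and in a fit of the 6 libraries alone, and that of CXCL10 without GA replicate 1 or 2 or GB replicate 1 or 3 (adjusted p up to 0.0768). IL11, an abundant cytokine that signals through gp130, was the fall, at 435, 427 and 489.8 FPKM in GA and 277, 287 and 278 FPKM in GB (log2 fold change -0.68, SE 0.10, adjusted p = 0.00105). Of 17 genes of NF-kappaB none was called, and 11.8% rose and 23.5% fell beside 9.91% and 19.1% of all genes, with NFKB1 (0.34) among 2 modest rises and BCL3 (-0.44) and CHUK (-0.34) as the 2 that held of 4 modest falls.

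Of 16 genes tied to immune tolerance, 5 were called higher and 5 were modest rises. LGALS9, a galectin that engages T cell receptors, was at 0.64, 0.22 and 0.95 FPKM in GA and 76.8, 65.1 and 73.5 FPKM in GB. The checkpoint ligand CD274 (PD-L1) rose from 37.3 ± 5.23 to 88.6 ± 9.13 FPKM, and WARS, the tryptophanyl-tRNA synthetase, rose from 232 ± 4.67 to 1655 ± 51.8 FPKM. In the other direction VSIR (VISTA) fell by 49.3% and LGALS3 by 17.2%, while the small fall of LGALS1 did not hold. The first components of the classical complement path rose together, C1R (2.31), C1S (1.48), C2 (3.16) and C4A (3.13), along with their inhibitor SERPING1 (1.76). C3, on which the complement paths converge, did not pass (from 2.55 ± 0.437 to 2.17 ± 0.208 FPKM), and the surface regulator CD46 fell by 14.6%.

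The largest falls were those of mitochondrial DNA. All 13 of its protein-coding genes were called lower, with a median of -2.45, from COX1 at -1.25 to ND4L at -3.20. ND4L was at 3171, 3232 and 2898 FPKM in GA and 323, 331 and 356 FPKM in GB, and COX1 at 4461, 4519 and 4617 FPKM in GA and 1821, 1952 and 1937 FPKM in GB. The libraries of the groups did not overlap for either. Nuclear genes for the same respiratory complexes had a median of -0.09, and of 83 tested 1 was called higher, 3 were modest rises and 18 were modest falls (21.7%), of which 8 held. The called one was COX7A1, a subunit of cytochrome c oxidase known from muscle, which rose from 26.8 ± 4.94 to 122 ± 11 FPKM, and the largest fall was its fellow subunit COX6B2 at -0.99. The modest rises included ATP5IF1 (0.36), the inhibitor of the ATP synthase.

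Genes that make or degrade mitochondrial RNA are nuclear, and of 29 tested 3 rose and 5 fell (10.3% and 17.2%, beside 9.91% and 19.1% of all genes). PNPT1, a polyribonucleotide nucleotidyltransferase that degrades RNA in mitochondria, was at 20.9, 22.2 and 21.7 FPKM in GA and 129, 124 and 132 FPKM in GB and was the 1 gene of the list to be called (log2 fold change 2.54, SE 0.077, adjusted p = 1.07e-08). The fall of its partner helicase SUPV3L1 (-0.27) did not hold. The polymerase POLRMT was a modest rise (0.39), and TFB2M, which helps the polymerase start, fell by 28.8%. TFAM, which packs and transcribes the mitochondrial genome, did not pass (0.39, SE 0.22). Of 78 mitochondrial ribosomal protein genes, 15 were modest falls (19.2%, beside 19.1% of all genes) and 3 modest rises, the largest fall being MRPS10 (from 129 ± 3.94 to 72.6 ± 8.12 FPKM).

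**Figure D3:**
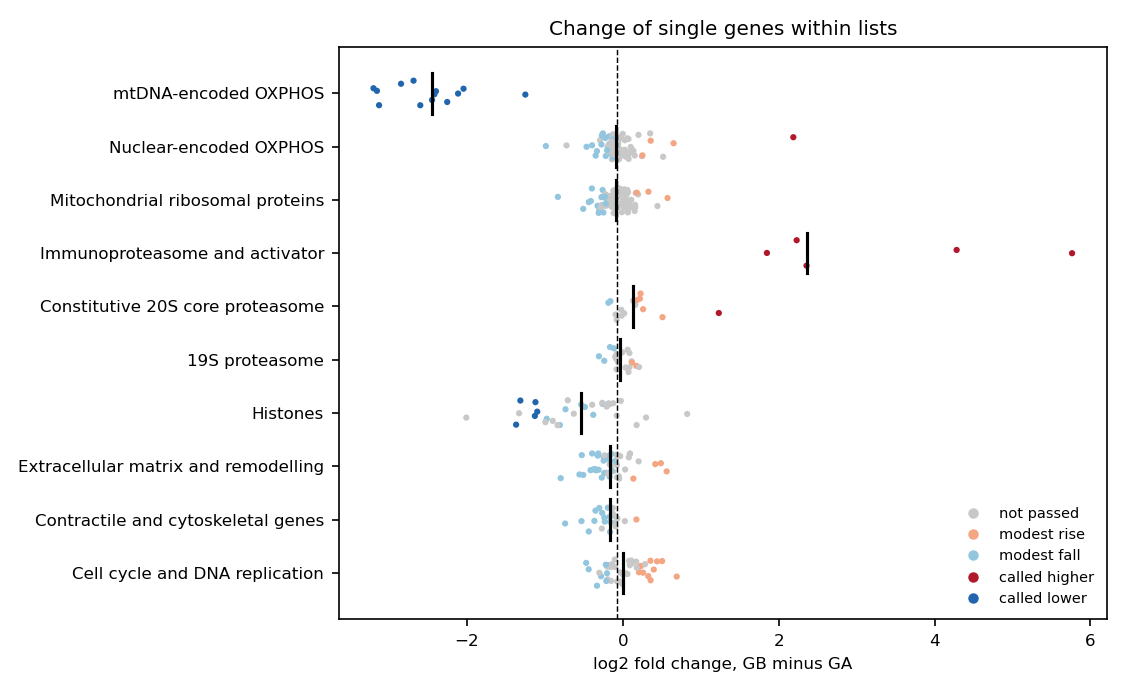
Log2 fold change (GB minus GA) of single genes in 10 lists, 1 point per gene, coloured by class. Black bars mark list medians and the dashed line the median of all genes, -0.07. The 13 mtDNA-encoded genes lie at or below -1.25 while the nuclear OXPHOS genes centre on -0.09, and the 5 immunoproteasome genes lie at or above 1.85 while the constitutive core centres on 0.13.

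Nuclear genes also had sharp falls, and 59 of those called lower had a mean of at least 5 FPKM. RAB18, a small GTPase of lipid droplets and the endoplasmic reticulum, was at 142, 143 and 132 FPKM in GA and 34, 34.4 and 31.4 FPKM in GB (log2 fold change -2.05, SE 0.060, adjusted p = 8.42e-09). FITM2, which acts in the budding of lipid droplets, was at 51.8, 54.6 and 52.3 FPKM in GA and 12.5, 13.2 and 14.3 FPKM in GB (log2 fold change -1.95, SE 0.070, adjusted p = 3.78e-08). In FAM92A, a protein of the ciliary base, the fall was from 127, 122 and 119 to 30.1, 29.2 and 32.1 FPKM. The mean level of these 3 genes fell by 76.1%, 74.8% and 75.1%.

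Further genes were among the 15 largest nuclear falls. The ornithine carrier SLC25A15 (-1.84), the glycerol-3-phosphate dehydrogenase GPD1L (-1.71), the mitochondrial fission regulator MTFR1 (-1.69) and the sugar epimerase RENBP (-1.66) were lower. The others were SMIM4 (-1.77), MISP3 (-1.61), SMIM11A (-1.53), the chromatin remodelling subunit PHF10 (-1.45), the ubiquitin ligase TRIM2 (-1.42), the gamma-secretase subunit APH1B (-1.41) and GNAT2 (-1.39), a transducin subunit. Each of the 15 held under the 3 scalings. The largest falls of all, ranked without a minimum level, also included SMIM10, LOC112447300 and LOC104968479, which met the few-read rule. The call of LOC112447300 was lost without GA replicate 1 or 2 or GB replicate 1 or 2 (adjusted p up to 0.0774).

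The factors that load the mRNA cap moved in opposite directions. EIF4E, the cap-binding protein, was at 215, 216 and 205 FPKM in GA and 1248, 1248 and 1306 FPKM in GB (log2 fold change 2.58, SE 0.060, adjusted p = 1.51e-09). EIF4EBP2, which binds EIF4E and keeps it from the ribosome, was at 819, 763 and 829 FPKM in GA and 253, 271 and 279 FPKM in GB (log2 fold change -1.58, SE 0.062, adjusted p = 7.59e-08). The 3 GB libraries of EIF4E all lay above and those of EIF4EBP2 all below the GA libraries. EIF4EBP1, its relative, fell by 16.5%, and the start site selection factor EIF1 by 33.5%. The kinase EIF2AK2 (PKR), which halts initiation when it meets double-stranded RNA, rose from 26.4 ± 0.398 to 215 ± 5.68 FPKM. Across 63 translation factors, 2 were called higher, 2 lower, 4 were modest rises and 10 modest falls (9.52% rose and 19% fell), with a median of -0.05. Of 80 cytosolic ribosomal protein genes, 15 were modest falls (18.8%, beside 19.1% of all genes), of which 8 held, and 1 was a rise.

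Aminoacyl-tRNA synthetases split between small rises and small falls. Besides WARS, the modest rises were YARS (0.60), CARS (0.39), TARS (0.29) and SARS (0.28), and the modest falls MARS (-0.36), LARS (-0.27), VARS (-0.23) and NARS (-0.22). All 9 held, and the remaining 11 of 20 did not pass.

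The histone genes that changed were lower. None of 31 tested passed as a rise, 5 were called lower and 8 were modest falls, 10 of these 13 held, and the median was -0.54 (41.9% fell, beside 19.1% of all genes). A search of the descriptions, made after the values were seen, gave a weaker picture. Of 36 tested genes found by it, none passed as a rise, 3 were called lower, 7 were modest falls and 26 did not pass. That search also caught MYSM1 and HINFP, which are not histones. HIST2H2BE was at 72.6, 60.4 and 77 FPKM in GA and 26.6, 23.1 and 34.3 FPKM in GB, and HIST1H2BB was at 88.5, 87.7 and 88.5 FPKM in GA and 37.1, 49.7 and 37.2 FPKM in GB. The linker histone H1F0 fell by 43.3%, and the damage-marking variant H2AFX by 28.4%. Several histone genes are near copies that share reads, so single values are uncertain. The libraries were made from poly(A) RNA, so these values cover only histone RNA that carries a poly(A) tail.

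Of the modest rises with a mean of at least 5 FPKM that held, also with the replicate number in the fit, the 15 of smallest p are described first. ATL3, an atlastin that shapes endoplasmic reticulum tubules, was at 131, 128 and 134 FPKM in GA and 228, 235 and 232 FPKM in GB, and the co-chaperone DNAJA1 at 222, 233 and 233 FPKM in GA and 389, 388 and 395 FPKM in GB. The matrix glycoprotein EMILIN1 was at 147, 149.8 and 148 FPKM in GA and 241, 239 and 240.3 FPKM in GB. Each of these 3 genes rose by more than 1.5-fold with libraries that barely differed within a group, at 1.77-fold, 1.71-fold and 1.62-fold.

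The other 12 of these rises had a range of known roles. The lipid flippase ATP10A rose 1.73-fold, the endosomal protein ANKFY1 1.92-fold and HACD2, an enzyme of fatty acid elongation, 1.85-fold. CMTR1, which methylates the first nucleotide after the mRNA cap, rose 1.64-fold, and the RNA-binding protein RBMS2 1.89-fold. The aminopeptidases LAP3 and DNPEP rose 1.65-fold and 1.64-fold. The rest were TM4SF1 (1.8-fold), the phospholipid-binding protein ANXA1 (1.63-fold), the lysosomal transporter MFSD12 (1.64-fold), the palmitoyltransferase ZDHHC9 (1.82-fold) and the secreted stress protein MANF (1.58-fold). Adjusted p ranged from 2.90e-07 for ATL3 to 6.14e-06 for LAP3.

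The 15 modest falls of smallest p were chosen in the same way. MBTPS1, the site-1 protease that activates SREBP and ATF6 in the Golgi, was at 53.2, 55.2 and 57.2 FPKM in GA and 27.5, 27.9 and 27.1 FPKM in GB. TRIM37, a ubiquitin ligase, was at 62.7, 64 and 61.7 FPKM in GA and 30.4, 32.2 and 33.6 FPKM in GB. ODC1, the first enzyme of polyamine synthesis, was at 426, 439 and 433 FPKM in GA and 243, 261 and 255 FPKM in GB. Every GB library was below every GA library in these 3 genes, and they fell by 50.2%, 49% and 41.6%.

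The kinase YES1 fell by 46%, the membrane contact protein ESYT2 by 46.4%, the vesicle coat regulator ARF2, a near copy of ARF3 with which it may share reads, by 47.4% and the lysosomal tether VPS33A by 46.4%. Creatine kinase CKB fell by 35.3%, the ligase subunit RMND5A by 48%, the metalloprotease ADAM12 by 42.8% and WWC2 by 42.8%. The deubiquitinase USP7, which stabilises MDM2, fell by 38%, and IVNS1ABP, which binds an influenza protein, by 38.1%. KIAA0754 and the copine CPNE3 completed the 15, with falls of 46.8% and 42.2%. Adjusted p ranged from 5.34e-07 to 3.74e-06.

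**Figure D4:**
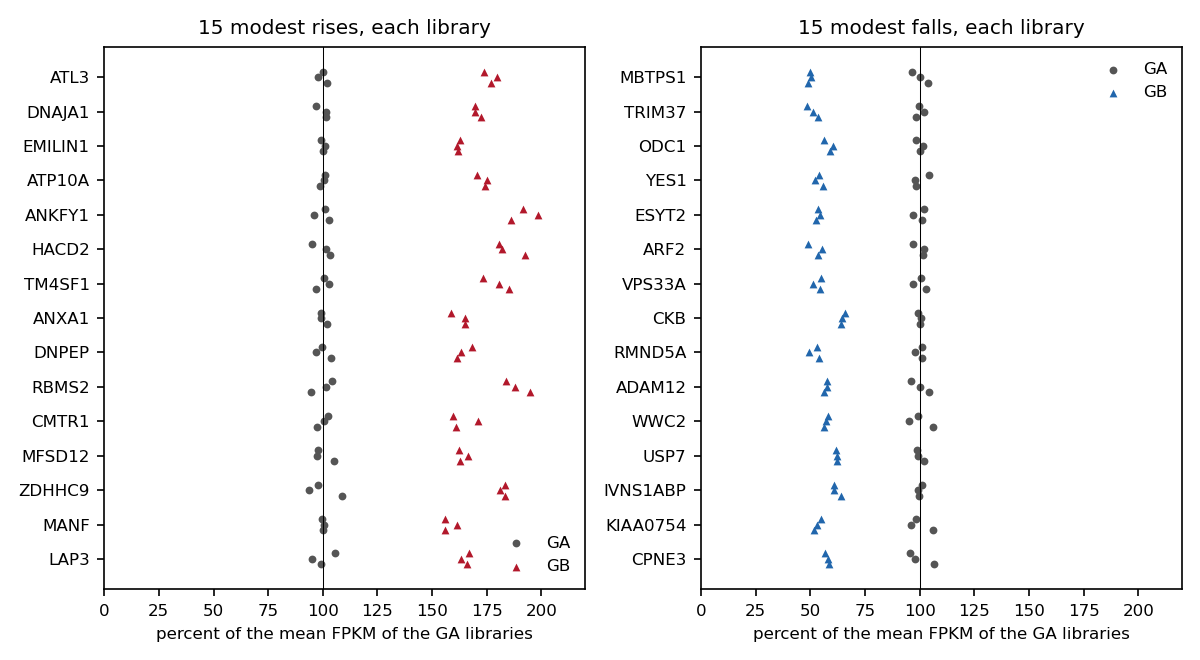
Level of each library as a percent of the mean FPKM of the 3 GA libraries, for the 15 modest rises (left) and the 15 modest falls (right) of smallest p, with GA as grey circles and GB as coloured triangles. No GB library overlaps a GA library, which the choice by smallest p makes likely. By the definition of modest, all changes are 2-fold or less on the log2(FPKM + 0.5) scale. Examples are the 1.64-fold rise of CMTR1 and the log2 fold change of -0.63 of CKB.

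Among the most abundant genes, more of the rises than of the falls held, in a check that the upward shift with median-of-ratios factors tilts towards rises. Of the 10 most abundant rises, the called ones were B2M, IFITM1, ISG15, IFITM3 and LOC112444847, and the modest ones included THBS1 (from 4361 ± 192 to 5810.5 ± 42.9 FPKM), HSPA8 (from 1597 ± 23 to 1831 ± 59.4 FPKM), RPS29 and HNRNPA1. RPS29 no longer passed without GA replicate 3, GB replicate 1 or GB replicate 2 (adjusted p up to 0.057), nor HNRNPA1 without GA replicate 3 or GB replicate 2 (adjusted p up to 0.063). Of the 10 most abundant falls, only S100A4 (from 13909 ± 418 to 11868 ± 454 FPKM) and FTH1, the ferritin heavy chain (from 4312 ± 129.6 to 3591 ± 65.1 FPKM), held under the 3 scalings. TMSB4X, VIM, LGALS1, PFN1, MYL6, GAPDH, PRDX1 and RPS15 had deposited log2 fold changes of -0.25 to -0.15, and did not pass with median-of-ratios factors. Among these, TMSB4X, VIM, LGALS1, MYL6 and RPS15 also failed to pass when single GA or GB libraries were left out, LGALS1 with any of the 6 (adjusted p up to 0.0903).

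The hormone receptors showed small changes. PGR, the progesterone receptor, was at 14.3, 15.1 and 16.6 FPKM in GA and 23.3, 22 and 25.8 FPKM in GB and rose 1.55-fold (log2 fold change 0.61, SE 0.078, adjusted p = 4.42e-04), and the glucocorticoid receptor NR3C1 rose 1.29-fold. The estrogen receptor ESR1 did not pass, from 8.08 ± 1.16 to 7.28 ± 0.739 FPKM, nor did GREB1, an estrogen-responsive gene, from 2.26 ± 0.163 to 2.34 ± 0.269 FPKM. TSC22D3 (GILZ), a target of glucocorticoids and progestins, fell by 39.5%. None of 16 genes of this list was called (25% rose and 12.5% fell). GA and CON, which differ by the hormones, gave 4 called genes (0.0318% of those tested) and 46 with adjusted p under 0.05 (0.365%), a comparison that shares the GA libraries with this one.

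In prostaglandin synthesis, no gene of 13 was called (7.69% rose and 23.1% fell). The cyclooxygenase PTGS1 was at 61.9, 61.2 and 75.3 FPKM in GA and 51.9, 48.1 and 47.6 FPKM in GB and fell by 25.6%, the prostaglandin D synthase PTGDS fell by 25.9%, and AKR1B1, an aldoketo reductase with prostaglandin F synthase activity, fell by 16.8%, which no longer passed without GA replicate 1 or 3 or GB replicate 1 or 3 (adjusted p up to 0.0648). PTGS2, the inducible cyclooxygenase, and PTGES, the E synthase, did not pass (0.14, SE 0.072, and 0.08, SE 0.074). The prostacyclin receptor PTGIR rose from 1.47 ± 0.422 to 3.26 ± 0.497 FPKM.

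Of 26 genes of uterine lineage and receptivity, 10 were modest falls, of which 8 held, and 4 rose (38.5% fell, beside 19.1% of all genes). The homeobox genes HOXA13 (from 5.23 ± 0.896 to 2.48 ± 0.578 FPKM) and HOXD11 (from 47.9 ± 3.7 to 32.2 ± 4.86 FPKM) were lower, while HOXA10 and HOXA11 did not pass (-0.38, SE 0.19, and -0.08, SE 0.18). WT1 fell by 33.3%, the stromal factor HAND2 by 19.5% and the retinol carrier RBP4 by 18.9%. The decidualization factor FOXO1 fell by 30.8%, which did not pass without GA replicate 2 or 3 or GB replicate 2 or 3 (adjusted p up to 0.0602). The rises were the WNT antagonist DKK1, at 321, 324 and 290.4 FPKM in GA and 659, 689 and 668 FPKM in GB, the autophagy modulator DRAM1 (1.85), IGFBP3 (0.90) and LGALS9.

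Growth factor genes moved in both directions. NRG1, a ligand of ERBB receptors, was called lower (from 7.07 ± 0.678 to 3.01 ± 0.107 FPKM). FGF2 was at 355, 319 and 419.5 FPKM in GA and 211, 216 and 225 FPKM in GB, and HGF was at 28.9, 31.2 and 33.5 FPKM in GA and 13.6, 18.1 and 21.2 FPKM in GB. FGF2 fell by 40.4%, HGF by 43.5%, VEGFA by 32%, FGF7 by 25.6% and EREG by 26.1%. The endothelins EDN1 (from 0.867 ± 0.11 to 2.91 ± 0.53 FPKM) and EDN2 (from 3.26 ± 0.397 to 9.46 ± 1.78 FPKM) were called higher, and modest rises were FST (0.69), EGFR (0.67), INHBA (0.39) and PDGFRA (0.33). Of the 38 genes tested, 9 rose and 12 fell, and all of the rises and 10 of the falls held. These were 23.7% and 31.6% of the list, beside 9.91% and 19.1% of all genes.

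The NOTCH and WNT lists had few large changes. NOTCH3, a receptor of mural and stromal cells, was at 0.86, 0.85 and 0.92 FPKM in GA and 11.2, 11.3 and 10.4 FPKM in GB and rose by a log2 fold change of 3.06 (SE 0.11), the NOTCH target HES4 rose by 1.59 and the ligand JAG1 by 0.61, while NOTCH2 fell by 19.5%. WNT2 fell by 29.1% and WNT5A rose 1.22-fold. In the BMP and TGF-beta list, ID4, an inhibitor of basic helix-loop-helix factors, was called higher, from 10.4 ± 2.43 to 41.3 ± 35.9 FPKM. That call was lost without any 1 of the GA libraries (adjusted p up to 0.113) or without GB replicate 3 (log2 fold change 0.96). It was also lost with the replicate block, without the filter, without the variance trend and in a fit of the 6 libraries alone. ID2 fell by 30.8%, and SMAD1 and SMAD3 by 27.2% and 26.6%. These lists had medians of -0.01 and -0.09.

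Immediate early genes were divided. ATF3 was called higher (from 24 ± 4.93 to 56 ± 3.17 FPKM), and ZFP36, which destabilises cytokine mRNA, MYC, NR4A2 and JUN were modest rises (0.73, 0.55, 0.62 and 0.35). KLF2 was at 56.5, 57.6 and 62.6 FPKM in GA and 25.8, 32.3 and 31.9 FPKM in GB and IER3 at 701, 692 and 828 FPKM in GA and 421, 441 and 419 FPKM in GB, with all GB libraries below all GA libraries. They fell by 49% and 42.3%, and EGR1 and EGR3 fell by 29.1% and 40.1%. FOS and DUSP1 did not pass. Of 29 genes, 6 rose and 10 fell (20.7% and 34.5%, beside 9.91% and 19.1% of all genes), 8 of the falls holding.

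Many genes of the extracellular matrix fell by small amounts. Of 51 tested, 28 were modest falls (54.9%, beside 19.1% of all genes) and 4 modest rises, and the median was -0.17, or -0.09 with median-of-ratios factors against -0.003 for all genes. With the 3 scalings 15 falls and all 4 rises held. COL1A2 was at 2749, 2799.5 and 2780.1 FPKM in GA and 2368, 2349 and 2299.5 FPKM in GB, COL3A1 fell by 20.2%, COL12A1 by 24%, the matricellular THBS2 by 30.8% and the protease MMP3 by 32.3%. COL1A1 did not pass (-0.09, SE 0.044). The rises included THBS1 (0.41), MMP19 (0.56) and COL8A1 (0.49).

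Contractile and cytoskeletal genes had a median of -0.17, with 13 modest falls of 23, of which 7 held, and 1 rise. Of this list 4.35% rose and 56.5% fell, beside 9.91% and 19.1% of all genes. SMTN, a smooth muscle protein that binds actin, fell by 40.3%, the calponins CNN2 and CNN1 by 30.8% and 22.4% and filamin FLNA by 18.9%. ACTA2 and TAGLN did not pass (-0.12, SE 0.074, and -0.13, SE 0.068). With the deposited values, the summed stromal and smooth muscle markers given above were lower in every GB library than in every GA library. These sums were not read under the other scalings, and the fall of VIM, the most abundant stromal marker, did not hold under them. The part of these markers in the falls was not tested.

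**Figure D5:**
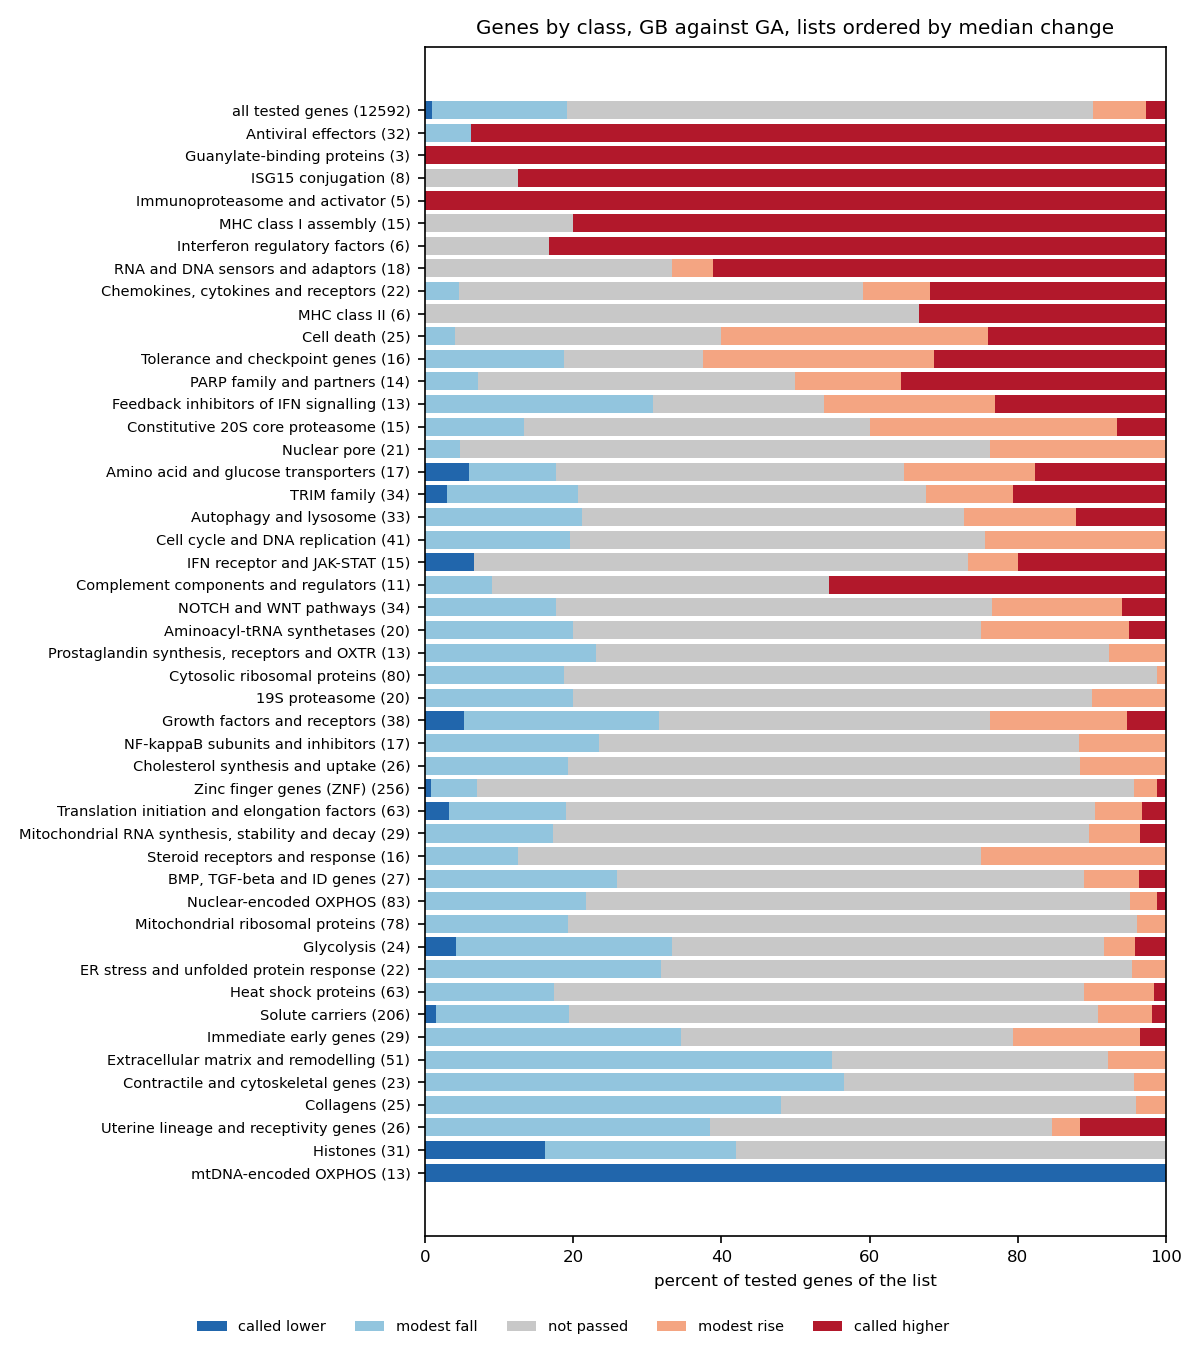
Percent of tested genes in each of 5 classes for 47 gene lists, ordered by median log2 fold change, with all tested genes at the top and the number tested in brackets. Antiviral effectors are 93.8% rises and mtDNA-encoded OXPHOS genes 100.0% called lower, whereas the matrix list holds 54.9% modest falls against 19.1% falls among all genes.

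Few metabolic genes changed by more than 2-fold. The glucose transporter SLC2A1 was at 17.9, 15 and 16.7 FPKM in GA and 41.2, 37.1 and 45.1 FPKM in GB and was called higher (log2 fold change 1.29, SE 0.093, adjusted p = 8.07e-06), and PDK1, which restrains pyruvate dehydrogenase, was at 8.4, 10.2 and 8.56 FPKM in GA and 2.76, 3.6 and 4.24 FPKM in GB and was called lower (log2 fold change -1.25, SE 0.15, adjusted p = 2.44e-04). Of 24 glycolysis genes, 7 were modest falls, of which 4 together with PDK1 held, among them ALDOA (-0.40), GPI (-0.37) and LDHA (-0.24). Of this list 8.33% rose and 33.3% fell, beside 9.91% and 19.1% of all genes. Of 26 cholesterol genes none was called, 3 were modest rises and 5 modest falls (11.5% and 19.2%). CH25H, which makes 25-hydroxycholesterol and is induced by interferon in macrophages, fell by 46.6%. The carriers with large changes were SLC15A3, a lysosomal peptide transporter (from 0.217 ± 0.136 to 35.2 ± 1.08 FPKM), the iron carrier SLC25A28 (1.64) and the cystine exchanger SLC7A11, which was lower (from 2.43 ± 0.358 to 0.81 ± 0.121 FPKM).

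Cell cycle genes moved modestly in both directions. Of 41 tested, none was called, 10 were modest rises and 8 modest falls, and all rises and 4 falls held (24.4% rose and 19.5% fell). Rises among genes that act before or in DNA replication included PCNA (from 258 ± 9.92 to 331 ± 9.04 FPKM), MCM2 (0.23), MCM3 (0.26), MCM5 (0.21), CDT1 (0.33) and CCNE2 (0.44), together with the D cyclins CCND3 (from 248 ± 17.6 to 400.4 ± 3.21 FPKM) and CCND2 (0.50). The falls that held were the most abundant D cyclin, CCND1 (from 857 ± 13.9 to 632 ± 1.27 FPKM), and the mitotic genes CDC20 (-0.47), CCNB1 (-0.33) and BUB1 (-0.28). MKI67 did not pass (0.08, SE 0.061). A test of replication genes against mitotic genes was not made.

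In autophagy and the lysosome, DRAM1, DRAM2 (1.13), CALCOCO2 (2.07), a receptor for autophagy of bacteria, and CTSS were called higher among 33 genes. SQSTM1, the p62 receptor, fell by 29.4%, and the cholesterol exporter NPC1 by 28.8%. Of 22 genes of endoplasmic reticulum stress, MANF was the 1 rise and 7 were modest falls (4.55% and 31.8%, beside 9.91% and 19.1% of all genes). Of these falls 5 held, including HSP90B1 (-0.31) and the sensor EIF2AK3 (-0.37). Among 63 heat shock and DnaJ genes, DNAJC1 was called higher (1.33), 6 were modest rises and 11 modest falls (11.1% rose and 17.5% fell). Nuclear pore genes had 5 modest rises of 21 tested, with NUP107 (0.54) and NUP98 (0.47) as the largest, and 1 fall (23.8% and 4.76%). Of 206 solute carriers 19 rose and 40 fell (9.22% and 19.4%), and of 256 ZNF genes 11 rose and 18 fell (4.30% and 7.03%).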

How the data were processed

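RNA of bovine endometrial cells was sequenced by the authors as directional poly(A) libraries. The authors trimmed reads with fastp 0.21.0, discarded rRNA reads (Bowtie2 2.33), mapped to ARS-UCD1.2 with HISAT2 2.2.1, counted with RSEM 1.3.3 and tested with DESeq2 1.34.0. The sources used here give neither the annotation release nor the strand setting. The deposited table gives FPKM per gene and library to 2 decimals, as the authors computed them. It holds no counts per gene, so a count test could not be run. The study reports clean reads per group, which were not used here.

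Here log2(FPKM + 0.5) was fitted with limma 3.58.1 (R 4.3.3) over all 9 libraries with a mean per group and a variance trend, for genes whose mean over the 6 GA and GB libraries reached 0.5 FPKM. P-values are two-sided and Benjamini-Hochberg adjusted over the 12592 genes. A called gene had an adjusted p under 0.05 and |log2 fold change| above 1. Fold changes of low genes are understated by the 0.5 added. The fit was tested on simulated data with independent normal noise. It recovered 12 of 50 changes of 1.2-fold, 37 of 50 of 1.5-fold and 48 of 50 of 2.5-fold, so small changes were often missed. Figures were drawn with matplotlib 3.10.9.

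The genes compared, the 47 gene lists and the tests were chosen with earlier results of these data known. Named genes were the key, extreme or most abundant members of the lists, the 10 largest rises and falls whose libraries did not overlap, the 15 largest called falls of nuclear genes, the 15 modest rises and 15 modest falls of smallest p (the last 3 groups at a mean FPKM of at least 5, without LOC symbols, the modest ones also passing with median-of-ratios factors, quantile normalization and the replicate block), and the 10 most abundant of each direction. Alternatives were pseudocounts of 1 and 0.1, no filter or a filter at 1 FPKM, 4 other scalings, no variance trend, a fit of the 6 libraries alone, a replicate block and each library left out. Leaving out genes of few reads was added after seeing the data. Values of some genes are not reported here. No promoter or protein sequences were used here.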

Additional observations from a re-analysis of the deposited data

How the results depend on the processing

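The counts of called genes in GB against GA stayed within 1.5 times their value under all 21 alternatives, at 448 to 472 with single libraries left out and 401 to 528 under the others (340 higher and 123 lower in the fit reported, 463 in all). With median-of-ratios factors the modest rises numbered 1439 (908 as deposited) and the modest falls 1497 (2286). With single libraries left out, modest rises ranged from 655 to 1045, modest falls from 1565 to 2605 and genes with an adjusted p under 0.05 from 2725 to 4116. The 4 genes called in GA against CON became 7 without a filter, 8 with median-of-ratios factors, 2 with the replicate block, 7 without genes of few reads and 1 to 11 with single libraries left out (2 without GA replicate 1, 1 without GA replicate 3, 9 without CON replicate 3 and 11 without GB replicate 3), alternatives chosen after seeing the data. With the replicate block, GB against GA gave 340 genes called higher, 122 called lower, 820 modest rises and 2162 modest falls. Deviations of same-numbered GA and GB libraries from their group means correlated at r = 0.0152, -0.029 and 0.0148 across genes. Such values over all genes, many of them noisy, cannot tell whether same-numbered libraries were paired by culture or batch. Of 143 called genes named in the text, 139 kept an adjusted p under 0.05 in every alternative in which they were tested (genes of few reads or low level drop out of some), as did 150 of 165 modest changes, and none of these called or modest genes turned its direction. The others are CCL2, CXCL10, ID4 and LOC112447300 among the called (ID4 also with the replicate block) and, among the modest, AKR1B1, FOXO1, GAPDH, HNRNPA1, LGALS1, MYL6, PFN1, PRDX1, PSMB7, RPS15, RPS29, S100A4, SUPV3L1, TMSB4X and VIM. The deposited values carry no read counts, so changes of genes near 0 FPKM were not given a counting error.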

Other observations

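The genes named here were chosen after their values were seen. Among the called rises outside the lists were genes of RNA and DNA turnover and capture: the helicase ZNFX1 rose from 27.9 ± 1.31 to 191 ± 1.08 FPKM (mean ± SD, n = 3), the exonuclease XRN2 from 67 ± 2.57 to 204 ± 0.98 FPKM, the DNA exonuclease TREX1 from 33.2 ± 2.34 to 161 ± 4.22 FPKM, the helicase MOV10 from 19.5 ± 0.186 to 98.3 ± 3.81 FPKM and the cap methyltransferase CMTR2 from 7.65 ± 0.955 to 50 ± 0.758 FPKM. Surface and secreted proteins also rose, with LY6E from 154 ± 18.6 to 576 ± 19.6 FPKM, the heparan sulfate proteoglycan SDC1 from 79.9 ± 4.11 to 184 ± 20.4 FPKM, the growth factor MDK from 19.8 ± 4.45 to 76 ± 7.15 FPKM and ERFE, which represses hepcidin, from 4.42 ± 0.828 to 44.4 ± 7.71 FPKM. PLAC8 was at 1.08, 0 and 0 FPKM in GA and 123, 141 and 139 FPKM in GB, SAMD9 at 0.09, 0.14 and 0.1 FPKM in GA and 75.2, 75 and 80.9 FPKM in GB and TIFA at 1.55, 0 and 0.33 FPKM in GA and 58.2, 51.2 and 50.9 FPKM in GB, so that each was near or under 1 FPKM without IFNT. Of the 340 genes called higher, 86 had a mean under 1 FPKM in GA, 7 were listed at 0 in all 3 GA libraries and 54 carried LOC symbols. The few-read rule marked 16, among them GBP6, at 0 in every GA library and 12.1, 10.9 and 12.2 FPKM in GB.

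Falls outside the lists included a regulator of chromatin. The Polycomb protein BMI1 was at 33.4, 31.6 and 34.6 FPKM in GA and 15.9, 14.1 and 17.6 FPKM in GB. The p53 target TP53INP1 fell by 60.2%, the phospholipid flippase subunit TMEM30A by 51.3% and the nuclear pore protein AAAS by 56.1%. Without GB replicate 2 the falls of BMI1 (log2 fold change -0.96) and TMEM30A (-0.98) were under 2-fold, as they were with median-of-ratios factors (-0.97 and -0.96). Modest falls that held included the small GTPase RHOB (from 862 ± 9.01 to 517 ± 9.33 FPKM), the tubulin TUBA1A (from 932 ± 4.71 to 617 ± 6.4 FPKM), the ligase scaffold CUL3 (from 54.3 ± 0.839 to 31.4 ± 0.448 FPKM) and the helicase DDX17 (from 101 ± 3.88 to 63.2 ± 1.99 FPKM). Modest rises that held included the adhesion molecule ICAM1 (from 125 ± 3.88 to 191 ± 8.51 FPKM), ARF3 (from 246 ± 10.2 to 484 ± 12 FPKM), whose near copy ARF2 fell, so that reads may have been split between them and both values are uncertain, and the mitochondrial fusion protein MFN2 (from 50.8 ± 1.08 to 78 ± 3.45 FPKM). For all 7 the libraries of GA and GB did not overlap.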
